A study of Mus musculus with 2 samples.

Results

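The genes described here are the mouse zinc finger genes whose symbol is Zfp followed only by a number below 400. They were chosen by name alone, from probe sets of the array that are annotated to exactly 1 gene symbol. This rule took 236 probe sets of 114 genes, out of 34945 probe sets of 18193 genes with 1 symbol. Most C2H2 zinc finger proteins hold a row of short folds, each built around a zinc ion, that read DNA base by base. Many of them also carry a KRAB domain, which recruits the corepressor Trim28 (KAP1) and through it histone methylation and heterochromatin proteins, and the genes of this kind lie in clusters of close copies. A number in the name is only a catalogue number, so the group also holds proteins of other kinds, such as the CCCH finger protein Zfp36, which binds RNA.

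Expression was measured in 2 cultures of primary osteoblasts, the bone-forming cells, grown from cells released from the skull vault (calvaria) of newborn pups. The wild-type group and the Slc39a13-KO group each had 1 array, so that no difference below has a replicate check and no p-value is given. Slc39a13, or ZIP13, is a zinc transporter of the ZIP family, and the KO mice were homozygous for a targeted allele in which a neomycin resistance cassette took the place of several exons. The study names C57/B6J mice for its RT-PCR samples, and the sources used here do not state the strain of the array cultures, how many pups each came from, or their sex. The comparison asks how the loss of a zinc transporter goes with the mRNA levels of genes whose proteins need zinc to fold. In bulk cultures such as these, fewer cells of a type and less RNA per cell cannot be told apart.

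Slc39a13 itself, read by 1 probe set, had signals of 1309 (wild-type) and 90.4 (Slc39a13-KO), 14.5-fold lower. Whether this probe set lies in the deleted part of the gene was not established. Both arrays had a trimmed mean of 500.003, and 48.2% of wild-type and 51.8% of Slc39a13-KO probe sets lay above a floor of 85.1, the median of all pooled signals. The 3'-to-5' signal ratio was 1.30 and 1.26 for β-actin and 0.796 and 0.752 for Gapdh. Of the marker genes of the cultures, 4 of 8 measured osteoblast markers were at least 2-fold higher in Slc39a13-KO (summed signal 81688 in wild-type, 109758 in Slc39a13-KO), while Ibsp and Phex lay below the floor in both arrays. Most of the rise in the sum came from Omd (357 in wild-type, 24251.5 in Slc39a13-KO). The ratio was above 0 in 6 of the 8, and Col1a1 (12230 and 7655) and Col1a2 (28503 and 25943) were lower. Alpl and Dmp1, called higher, lay at the floor in wild-type. Bglap, Bglap2, Spp1 and Runx2 had no probe set annotated to that symbol alone. Of the chondrocyte markers 15 of 16 were higher (4193 and 131033), of the macrophage markers 6 of 9 were higher (1048 and 4101), and of the smooth muscle markers 6 of 7 were lower (45049 and 15977). These lists differed between the same 2 arrays as the zinc finger genes, and their part in the differences of the zinc finger genes was not tested.

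Zfp mRNAs were mostly a little higher in Slc39a13-KO osteoblasts, and few changed by a large factor. Of the 114 genes, 106 were measured, that is, had a probe set above the floor in at least 1 array. A gene was called when its mean log2 ratio, Slc39a13-KO minus wild-type, reached 2-fold and none of its measured probe sets pointed the other way. By this rule 11 of the 106 (10.4%) were higher in Slc39a13-KO, where 8.01% of all 12269 measured genes were, and 0 were lower, where 5.93% of all were. The log2 ratio was above 0 in 90 of the 106 (84.9%), against 58.3% of all measured genes. Their median log2 ratio was 0.36, against 0.11 for all measured genes, and 81 of the 106 (76.4%) lay above that all-gene median. The ratios ran from -0.98 for Zfp52 to 2.12 for Zfp395.

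Because a gene that passes the floor through only 1 array must show a difference, the counts were also taken over probe sets that passed the floor in each array. There 97 Zfp genes were left, of which 9 were higher (7.47% of all such genes) and 1, Zfp52, was lower (5.48% of all). The ratio was above 0 in 82 of the 97 (84.5%), against 56.9% of all such genes, and the median was 0.36 against 0.09. With no floor, which takes in all 114 genes, the median was 0.40 against 0.16, and 92 of the 114 (80.7%) lay above 0, against 57.9% of all genes. The count of called genes depended on how the arrays were put on one scale. Higher and lower calls numbered 11 and 0 with the common trimmed mean, 6 and 1 with a common median, 7 and 1 with quantile scaling, 6 and 1 with loess, and 72 and 0 with the poly-A control RNAs as reference. Over all measured genes, 5.34%, 6.32%, 6.24% and 45.8% were higher under these 4 scalings, and 8.60%, 6.98%, 7.10% and 1.75% were lower. The share of Zfp genes above 0 moved with the scaling as well, to 65.7%, 70.5%, 68.6% and 99.1%, and so do all counts above 0 given below. The excess of the Zfp median over the median of all genes depended on it far less, at 0.25 with the trimmed mean and between 0.16 and 0.28 under 11 other settings.

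**Figure D1:**
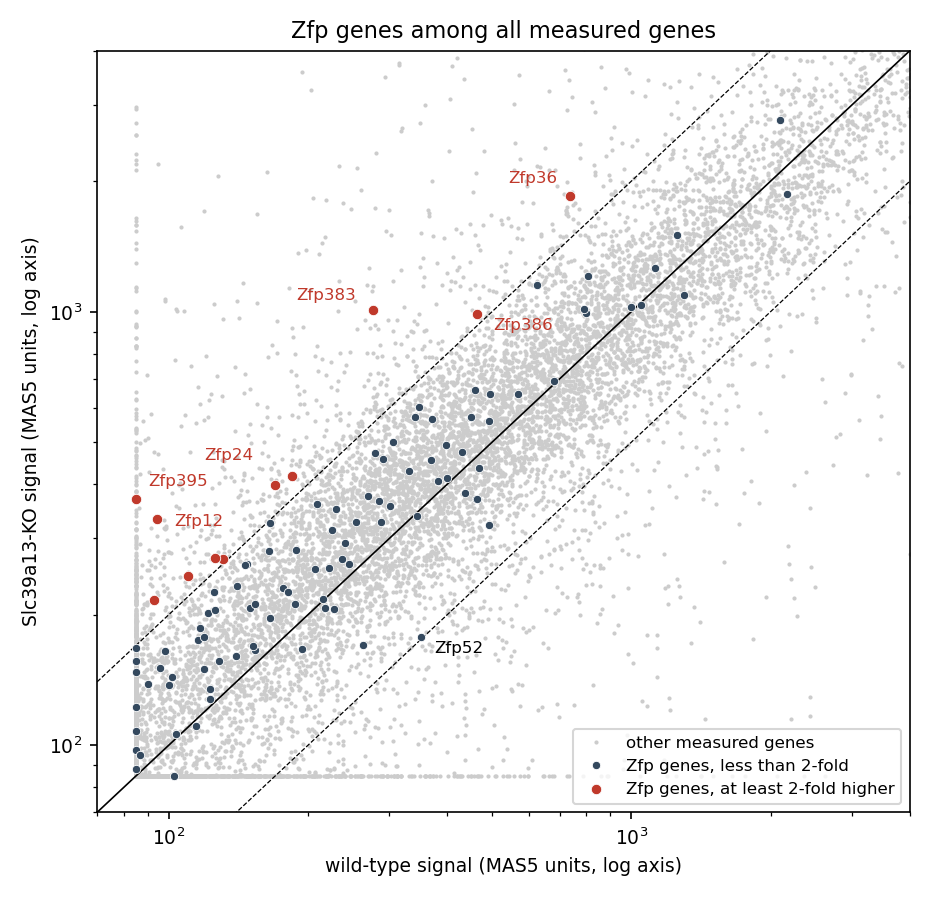
Signal of measured genes in the wild-type array (x axis) and the Slc39a13-KO array (y axis), in MAS5 units on log axes, with Zfp genes as large points, other measured genes as small grey points, a solid line at equal signal and dashed lines at 2-fold. Other genes brighter than the upper end of an axis lie outside the plot. Most of the 106 Zfp points lie above the line of equal signal and inside the 2-fold lines, with Zfp395, Zfp383 and Zfp12 farthest above it and Zfp52 at the lower dashed line.

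Of the 11 genes that were higher, Zfp36 (tristetraprolin) has the best known role: its CCCH fingers bind AU-rich elements and speed the decay of cytokine and growth factor mRNAs. Its signal was 738 in wild-type and 1851 in Slc39a13-KO, 2.51-fold higher. It is read by 1 probe set, of a type whose probes may match several transcripts of the gene. Zfp383, a KRAB zinc finger gene, had 277 in wild-type and 1009 in Slc39a13-KO, 3.65-fold higher. Zfp12, another member of the C2H2 class, had 94.5 and 332, 3.51-fold higher. The wild-type signal of Zfp12 lay close to the floor.

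Zfp395, whose human counterpart binds the promoter of the Huntington disease gene, was the gene with the largest ratio. Its wild-type signal of 58.8 lay below the floor, and that in Slc39a13-KO was 370, so that it was at least 4.35-fold higher. Zfp24, which oligodendrocytes need to make myelin, was the called gene read by the most probe sets. The 6 probe sets gave log2 ratios between 0.71 and 1.72, all above 0, with a mean of 1.23 (at least 2.35-fold) and an SD between probe sets of 0.37. The brightest of them had 981 in wild-type and 1872 in Slc39a13-KO. In wild-type, 2 of them lay below the floor. All 6 readings of Zfp24 were thus higher in Slc39a13-KO.

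Zfp386 (Kid3), a KRAB protein, was read by 2 probe sets, which had 268 and 657, and 800.2 and 1491, in wild-type and Slc39a13-KO. Their log2 ratios were 1.29 and 0.90, so that the gene was 2.13-fold higher, a call lost in 5 of 11 other settings. Zfp60, a KRAB gene, had 101 and 308 on one probe set, while its other probe set was below the floor in wild-type (49.1) and at 152 in Slc39a13-KO. Its 2 log2 ratios, 1.60 and 0.84, put it at least 2.33-fold higher. Zfp93 had 187 and 341 on one probe set, with a log2 ratio of 0.87, and 81.3 (below the floor) and 216 on the other, which may also match related genes, with a log2 ratio of 1.34. The gene mean was at least 2.15-fold, and this call was lost in 7 of 11 other settings, among them median, quantile and loess scaling.

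The remaining called genes were read by 1 measured probe set each. Zfp185 is an exception in its name, since its protein holds a LIM domain and goes with the actin cytoskeleton. Its signal was 109.9 in wild-type and 246 in Slc39a13-KO, 2.24-fold higher. Zfp41 had 185 and 418, 2.26-fold higher, and Zfp58 had 131 and 269.5, 2.05-fold higher. All 3 lay above the floor in both arrays. Just short of 2-fold was Zfp61, with a log2 ratio of 0.98 (signals of 166 and 326). Zfp286 had a log2 ratio of at least 0.98, since both its measured probe sets were below the floor in wild-type, and it was called higher, at 1.79, when its brightest probe set alone or a filter on mean signal was used. With median, quantile or loess scaling, Zfp41, Zfp185 and Zfp58 fell short of 2-fold.

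**Figure D2:**
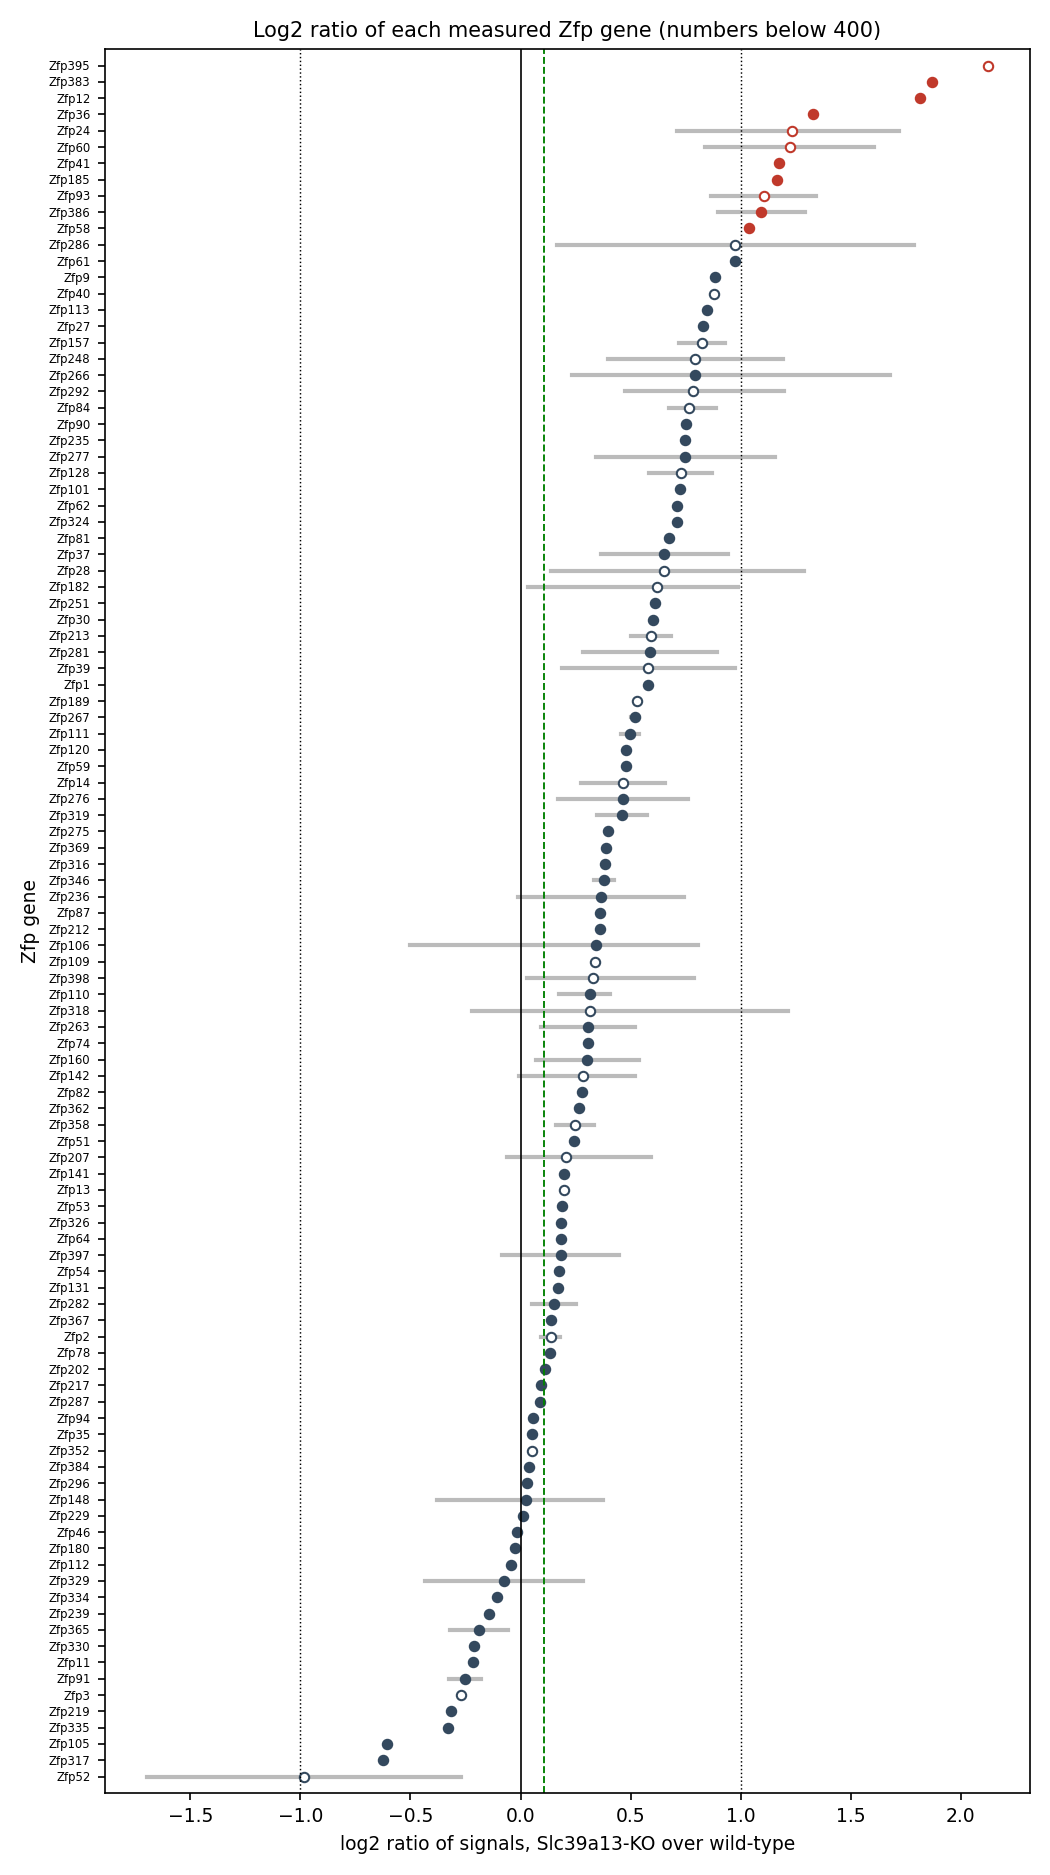
Log2 ratio of signals, Slc39a13-KO over wild-type (x axis), of each of the 106 measured Zfp genes (y axis), with points at the gene mean, open where a probe set lay at the floor in 1 array, red where the gene was called, and grey bars from the lowest to the highest probe set. The solid line marks 0, the green dashed line the all-gene median of 0.11 and the dotted lines 2-fold; 90 points lie right of 0 and the 11 red points right of the upper 2-fold line.

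At the other end, Zfp52 was the gene with the lowest ratio, and both of its probe sets were lower. One had 1209 in wild-type and 373 in Slc39a13-KO (log2 ratio -1.70). The other had 102 in wild-type and was below the floor (62.7) in Slc39a13-KO, and the gene mean of -0.98 missed the threshold. With probe sets that passed the floor in each array, or with the brightest probe set alone, Zfp52 was called lower, as it was under 9 of the 11 other settings. Zfp317 (262 and 170.3) had a log2 ratio of -0.62 and Zfp105 (492 and 323) one of -0.61. The next lowest was Zfp335, at -0.33.

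The genes with the strongest signals differed little between the arrays, Zfp36 aside. Zfp275 had 2101 in wild-type and 2771 in Slc39a13-KO (log2 ratio 0.40). Zfp330, a nucleolar protein, had 2170.3 and 1872, a log2 ratio of -0.21. Zfp91, a ubiquitin ligase of the noncanonical NF-κB pathway, had 1303 and 1095, a log2 ratio of -0.25 with both measured probe sets below 0. Of its 4 probe sets on the array only these 2 were measured, and with no floor the gene mean was 0.37. Zfp362 (1253 and 1507), Zfp131 (1124 and 1263), a BTB-domain factor, Zfp46 (1049.7 and 1038) and Zfp384 (999 and 1025) had ratios between -0.02 and 0.27. None of these 7 reached 1.5-fold.

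At the dim end, 8 genes were below the floor in both arrays, each read by 1 probe set: Zfp42, Zfp57, Zfp92, Zfp108, Zfp169, Zfp184, Zfp341 and Zfp389, the last of which is a pseudogene in RefSeq. Zfp42 (Rex1), a marker of pluripotent stem cells, had 3.37 in wild-type and 26.5 in Slc39a13-KO. Zfp57, which keeps the methylation of imprinted loci, had 69.9 and 35.6. No ratio was taken for these 8.

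The 106 ratios were set against genes of like signal, since the scatter of ratios differed with signal. All measured genes were cut into 5 equal groups by mean signal, and the other genes were weighted so that they fell into these groups as the Zfp genes did. The weighted median of the other genes was 0.15, and the Zfp median of 0.36 lay above it by 0.21. Of the weighted others, 61.2% had a ratio above 0, against 84.9% of the Zfp genes. Higher calls made up 9.23% and lower calls 6.70% of the weighted others, 15.9% in all, against 10.4% of the Zfp genes.

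The Zfp ratios were shifted and also less scattered. Their SD was 0.50, against 0.85 for the weighted others, and their interquartile range was 0.59 against 0.76. This SD was below that of the other genes of like signal under all 11 other settings too. The lower side carried most of the difference in shape: 16 of 106 ratios were at or below 0, and the lower quartile of the Zfp genes was 0.13, above the all-gene median of 0.11. The upper quartile was 0.72, against 0.48 for all measured genes. Within 1.5-fold of equal signal lay 66 of the 106 (62.3%), against 67.7% of all measured genes.

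**Figure D3:**
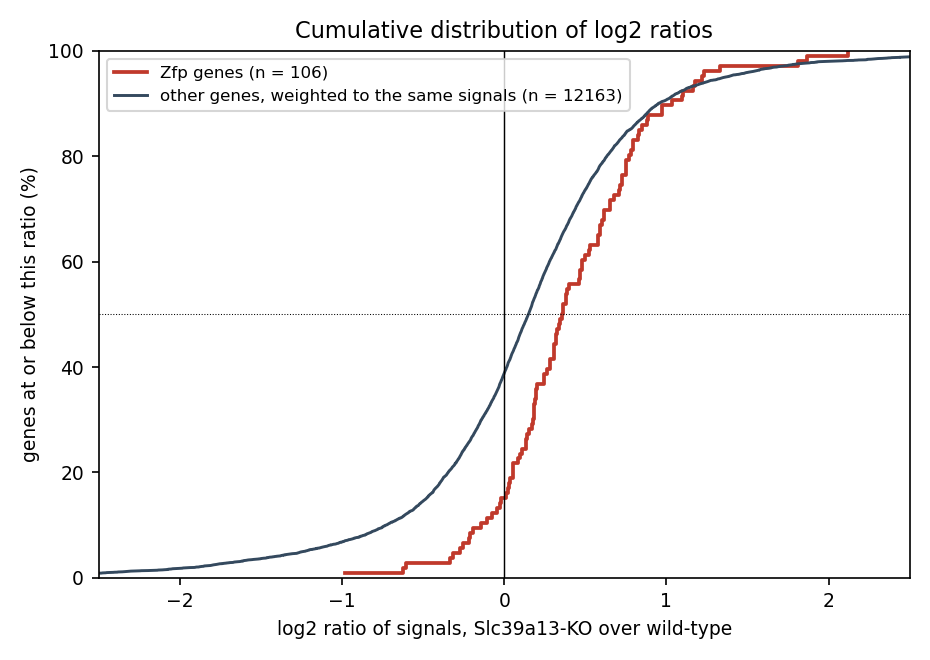
Cumulative share of genes (y axis, %) at or below each log2 ratio of Slc39a13-KO over wild-type (x axis), for the 106 Zfp genes and for the other 12163 measured genes weighted to the same signals. The Zfp curve lies to the right of the other curve up to a ratio near 1, crosses the 50% line at 0.36 against 0.15, and meets the other curve above a ratio of 1.

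The shift was present at each signal level. In the dimmest of the 5 groups, the 23 Zfp genes had a median of 0.47 against 0.14 for the others. Of the 23, 21 (91.3%) were above 0, against 63.7% of the others. In the next, the 41 Zfp genes had 0.47 against 0.19, and 36 (87.8%) were above 0, against 62.9% of the others. This group held 7 of the 11 called genes, 17.1% of its Zfp genes, while 21.4% of the others in it were called. In the middle group the 24 Zfp genes had 0.27 against 0.17 and none was called, while 15.4% of the others were. The 12 Zfp genes of the fourth group had 0.37 against 0.07, and the 6 of the brightest group 0.22 against -0.06. The gap between the medians was therefore not held by the dim genes alone, although the number of Zfp genes in the brightest groups is small.

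**Figure D4:**
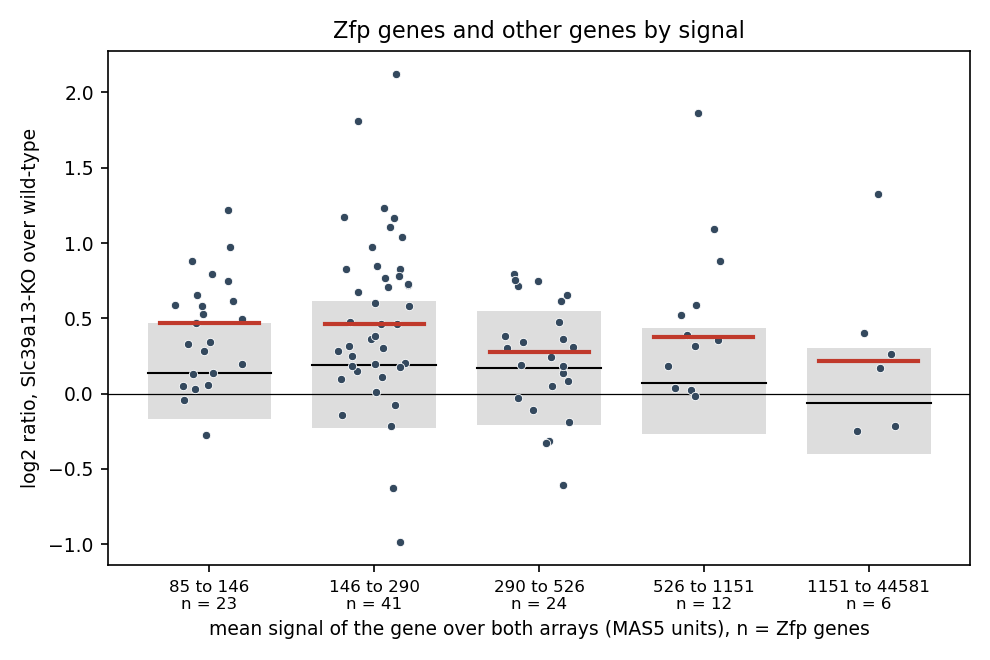
Log2 ratio of Slc39a13-KO over wild-type (y axis) of the measured Zfp genes in 5 groups of mean signal (x axis, MAS5 units), with each Zfp gene as a point and their median as a red line, and the interquartile range of the other genes as a grey box with their median as a black line. The red line lies above the black line in all 5 groups, from 0.47 against 0.14 in the dimmest to 0.22 against -0.06 in the brightest.

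Several Zfp genes are read by more than 1 probe set, which gives repeated readings of the same RNA but no replicate. Of 43 such genes, 35 had all probe sets on one side of 0, with 32 above and 3 below. Among 5657 other genes with several probe sets, 3421 had one sign, with 2083 above and 1338 below. The median SD between probe sets of 1 gene was 0.30 for the Zfp genes and 0.34 for the others. Of the 177 measured Zfp probe sets, 149 were above 0, with a median of 0.37. The share of all measured probe sets above 0 was not taken, and among all measured genes it was 58.3%. Of the 177, 31 lay at the floor in wild-type only, which puts their ratio above 0, and 5 in Slc39a13-KO only, which puts it below. Of the 141 that passed the floor in each array 118 were above 0, where 56.9% of all such genes were. Probe sets whose name marks a possible match to other transcripts numbered 26, of which 21 were above 0, and of the 151 without such a mark 128 were.

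The probe sets of some genes were far apart. Zfp286 had log2 ratios of 0.16 and 1.79, both with wild-type below the floor. The 4 probe sets of Zfp266 ran from 0.23 to 1.68, and its brightest had 1724 in wild-type and 2571 in Slc39a13-KO. Zfp106, an RNA-binding protein needed by motor neurons and muscle, had 3 measured probe sets with -0.50, 0.73 and 0.81, so that its mean of 0.34 stands for readings that disagree. Zfp318, known from B cells for its part in making IgD, had 5 probe sets from -0.22 to 1.22. Since close copies within a cluster share sequence, a probe set may also read a neighbour of the gene it is named for.

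By known role, the genes were sorted into lists whose members were picked by function. Of 6 measured genes for RNA and RNA processing, 1 (Zfp36) was higher (8.01% of all measured genes) and 5 were above 0 (58.3% of all), with a median of 0.27. Apart from Zfp36, Zfp106 and Zfp330, they were Zfp346 (JAZ), which binds double-stranded RNA and had 330.2 in wild-type and 429.98 in Slc39a13-KO, Zfp326, a splicing factor with 568 and 646, and Zfp207 (BuGZ), a kinetochore protein with 222 and 256. The log2 ratios of these last 3 were 0.38, 0.19 and 0.21. In this list Zfp36 alone reached 2-fold.

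Of the genes named for bone, cartilage or mesenchyme, 4 were measured and the median was 0.11, the value of all genes. Of these 4, 0 were called, where 8.01% of all measured genes were higher and 5.93% lower. Zfp384 (Nmp4, CIZ), a nuclear matrix protein that restrains bone formation by osteoblasts, had 999 in wild-type and 1025 in Slc39a13-KO (log2 ratio 0.04). Zfp219, a partner of Sox9 in chondrocytes, had 461 and 370.4, a log2 ratio of -0.32. Zfp64, a Notch coactivator, had 491 and 558, a log2 ratio of 0.18. Zfp318 was the fourth of this list, although the only role given for it here is in B cells.

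Of 7 measured factors of general transcription and chromatin, 0 were called, where 8.01% of all measured genes were higher and 5.93% lower. Of the 7, 6 were above 0 (58.3% of all), with a median of 0.14. The 6 probe sets of Zfp148 (ZBP-89) ran from -0.38 to 0.37 around a mean of 0.03. Zfp217, a corepressor amplified in cancers, had 245 in wild-type and 262 in Slc39a13-KO. Zfp335, which neural progenitors need, had 465 and 369.7, a log2 ratio of -0.33. Zfp292 stood highest in this list, with 5 measured probe sets between 0.47 and 1.20 and a mean of 0.78. Zfp281, a factor of the pluripotency network, had 805 and 1209.8, a log2 ratio of 0.59, while the other 2 genes of its list on the array, Zfp42 and Zfp57, were below the floor in both.

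The list of signalling, ubiquitin and other proteins had 7 measured genes, of which 2 (Zfp24 and Zfp185) were higher (8.01% of all measured genes) and 5 were above 0 (58.3% of all), with a median of 0.39. Zfp110 (wild-type 797, Slc39a13-KO 994) and Zfp369 (495 and 647), a pair of related proteins that bind the neurotrophin receptor p75, had log2 ratios of 0.32 and 0.39. Zfp277 had 341 and 573, a log2 ratio of 0.75, and Zfp365 (DBZ), a centrosomal protein, had 436 and 382, a log2 ratio of -0.19. Most of the called genes, among them Zfp383, Zfp12, Zfp41, Zfp58, Zfp60 and Zfp93, stood in none of these lists.

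Other families of zinc finger genes had medians above the all-gene median of 0.11 too, and their counts stand against 8.01% higher, 5.93% lower and 58.3% above 0 among all measured genes. Of the 191 Zfp genes numbered 400 or above, 159 were measured, with a median of 0.41 and 128 (80.5%) above 0, and 25 (15.7%) were at least 2-fold higher and 1 was lower. Zscan and Zkscan genes, whose proteins carry a SCAN domain, had a median of 0.68 with 16 of 18 (88.9%) above 0 and 2 (11.1%) higher. Zbtb genes, whose proteins carry a BTB domain, had 0.21 with 26 of 37 (70.3%) above 0 and 3 (8.11%) higher. Zfp genes with a number and letters had 0.47 with 21 of 26 (80.8%) above 0, 2 higher and 2 lower. Named after their values were seen, Zfp521, an antagonist of Runx2 in osteoblasts, rose from 650.4 in wild-type to 2381 in Slc39a13-KO, and Zfp36l1, a relative of Zfp36, rose from 714 to 1488. No difference between these families and the Zfp genes numbered below 400 was tested.

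The medians of the partners of KRAB proteins and of the genes of zinc handling lay near that of all genes. Trim28 had 4221 in wild-type and 4399.8 in Slc39a13-KO (log2 ratio 0.06), and the methyltransferase Setdb1 had 206 and 286, a log2 ratio of 0.47. The list of 15 corepressor genes had a median of 0.10 with 12 (80%) above 0, against 58.3% of all measured genes. Only Cbx3, a heterochromatin protein below the floor in wild-type, was called, at least 2.04-fold higher (8.01% of all measured genes were higher). Of 21 measured genes of zinc homeostasis, 1 was higher (8.01% of all measured genes) and 3 were lower (5.93% of all), with a median of 0.08. The lower ones were Slc39a13, the zinc importer Slc39a8, at least 3.10-fold, and the metallothionein Mt3, at least 2.13-fold, both below the floor in Slc39a13-KO. The higher one was the metallothionein Mt1, with 1368 and 2950.4. Mt2 had 515 and 927, and Mtf1, the zinc sensor that drives metallothionein genes and is itself a C2H2 zinc finger factor, had 244 and 236.

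**Figure D5:**
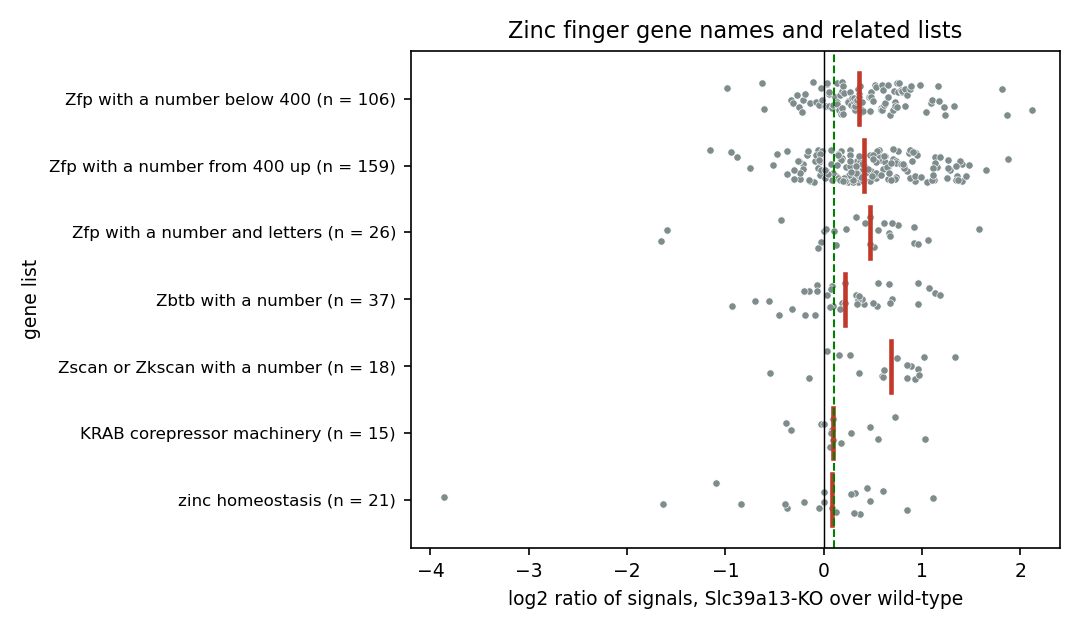
Log2 ratio of Slc39a13-KO over wild-type (x axis) of each measured gene in 7 lists (y axis, n = measured genes), with a red line at each median, a solid line at 0 and a green dashed line at the all-gene median of 0.11. The 5 zinc finger lists have medians of 0.36, 0.41, 0.47, 0.21 and 0.68 from top to bottom, all right of the green line, while the KRAB corepressor machinery (0.10) and zinc homeostasis (0.08) lie on it.

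By position in the genome (RefSeq, GRCm38.p6), 27 of the 114 genes lie on chromosome 7, 13 on chromosome 17, 9 on chromosome 13 and 7 on chromosome 2, which also holds Slc39a13. On chromosome 7 the 26 measured genes had a median of 0.49 with 23 above 0, while 926 other genes of that chromosome had 0.11. On chromosome 17 the median was 0.27 with 11 of 12 above 0, and on chromosome 2 it was 0.14 with 4 of 6 above 0, against 0.10 for the other genes there. Neighbours were classed by symbol alone, among protein-coding genes, so that zinc finger genes with other names were not counted. Genes directly beside a gene with a Zfp, Zbtb, Zscan, Zkscan or Znf symbol numbered 58, of which 56 were measured, with a median of 0.37 and 49 above 0. The 50 measured genes that did not stand beside one had 0.31, with 41 above 0. Among all 106 measured Zfp genes 90 (84.9%) were above 0, against 58.3% of all measured genes. No difference between these groups or between chromosomes was tested.

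Both genes were measured in 25 pairs of directly adjacent Zfp genes numbered below 400, and both log2 ratios were above 0 in 21 of them. Since 84.9% of the 106 measured Zfp genes were above 0, most pairs of Zfp genes would have both above 0 wherever they lie. Pairs that are not adjacent were not compared, so these values do not show whether neighbours are more alike. The 2 ratios of a pair differed by a median of 0.39, with 16 pairs within 1.5-fold of each other and 9 farther apart. Zfp101 (0.72) and Zfp81 (0.68) were close. Zfp248 (at least 0.79) lies beside Zfp9 (0.88), but both measured probe sets of Zfp248 were below the floor in wild-type, so its value is a bound. On chromosome 7, Zfp383 (1.87) lies between Zfp27 (0.83) and Zfp74 (0.30), and Zfp61 (0.98) lies between Zfp93 (at least 1.10) and Zfp94 (0.06). On chromosome 17, Zfp52, the gene with the lowest log2 ratio, lies in a run with Zfp54, Zfp51 and Zfp53, whose log2 ratios were 0.18, 0.24 and 0.19, and on its other side with Zfp948, whose log2 ratio was -0.37. Zfp54, Zfp51 and Zfp53 had signals of 188 to 300.2 in wild-type and 212 to 356 in Slc39a13-KO.

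The 250 bases before the start of transcription were read from RefSeq for the 95 genes that had an entry. Windows that overlap the annotated span of their gene were kept here and in the medians by motif. Some windows may therefore lie within the gene. Their GC content had a median of 55.6%, against 60.0% for 9814 other measured genes and 52.0% for all 27025 promoters. Motifs were searched as exact letters on both strands. The ETS-type site CCGGAAG stood in 22 of the 95 (23.2%), against 7.05% of all promoters and 13.5% of the other measured genes. The CCAAT box (CCAAT) stood in 43.2%, against 34.5% and 36.1%. The GC box (GGGCGG) stood in 42.1%, against 32.9% and 59.3%. These shares describe the windows, and no motif was tested as a site.

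Zinc acts on metallothionein genes through Mtf1 and the metal response element, whose core letters (TGCGCNC or TGCACNC) stood in 30.5% of the Zfp promoters, against 21.3% of all promoters and 30.3% of the other measured genes. The median log2 ratio was 0.32 for the 27 measured genes with the letters and 0.32 for the 61 without. Genes with the ETS-type site had 0.28 (n = 21) and those without 0.34 (n = 67). The 8 measured genes with the TATA box letters TATAAA had -0.11, against 0.33 for the 80 without. The TATA box stood in 8.42% of the Zfp promoters, against 13.0% of all promoters and 6.71% of the other measured genes.

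The windows of 3 called genes are shown, printed 5′ to 3′ on the strand of the gene with each match in capitals. They are the called genes with an entry whose window did not overlap the annotated span of the gene. Zfp24 was not considered for this display. Zfp36 (GRCm38.p6 chr7:28379229-28379478, minus strand) holds 1 ETS-type site and 1 GC box, the latter read as its reverse complement. Zfp60 (chr7:27731159-27731408, plus strand) holds 1 metal response element core and 1 ETS-type site, both read as their reverse complement. Zfp58 (chr13:67500523-67500772, minus strand) holds 1 CCAAT box.
Zfp36: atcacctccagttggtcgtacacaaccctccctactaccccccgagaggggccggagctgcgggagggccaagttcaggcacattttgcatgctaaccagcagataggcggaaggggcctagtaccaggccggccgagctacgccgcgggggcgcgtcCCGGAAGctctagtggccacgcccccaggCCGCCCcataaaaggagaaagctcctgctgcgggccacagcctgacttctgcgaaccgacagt
Zfp60: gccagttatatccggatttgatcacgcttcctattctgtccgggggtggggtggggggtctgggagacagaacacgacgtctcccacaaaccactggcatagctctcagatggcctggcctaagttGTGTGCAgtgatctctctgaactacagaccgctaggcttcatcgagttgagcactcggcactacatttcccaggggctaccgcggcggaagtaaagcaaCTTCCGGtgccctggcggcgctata
Zfp58: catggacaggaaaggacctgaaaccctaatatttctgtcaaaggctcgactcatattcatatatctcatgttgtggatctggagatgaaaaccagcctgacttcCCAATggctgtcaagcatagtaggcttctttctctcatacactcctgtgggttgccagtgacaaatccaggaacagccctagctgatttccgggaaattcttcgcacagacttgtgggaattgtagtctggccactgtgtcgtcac
All 3 genes were at least 2-fold higher in Slc39a13-KO, and no motif of this set stood in all 3 windows. The GC content of the windows was 64.8% in Zfp36, 56.8% in Zfp60 and 46.8% in Zfp58.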

How the data were processed

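The authors made biotin-labelled cRNA from total RNA of 1 wild-type and 1 Slc39a13-KO osteoblast culture, hybridised it to whole-genome mouse arrays and deposited linear signal intensities, 1 per probe set. Per the submitters' processing notes these are MAS5 values (version not given in the sources used here), whereas the methods of the study name gcRMA. The deposited intensities are linear with equal trimmed means, as MAS5 scaling gives. Since each array was scaled to one target, these values cannot show a change in the total mRNA content of the cells.

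Genes came from the platform annotation: of 45101 probe sets, 64 were controls, 34945 had 1 symbol, 932 several and 9160 none, and only those with 1 symbol were used. All 114 Zfp genes were matched by gene ID to RefSeq (GRCm38.p6). Arrays were put on a common trimmed mean (2% at each end), values below 85.1 (the 50th percentile of pooled non-control signals) were raised to it, and log2 ratios of Slc39a13-KO minus wild-type were averaged over the measured probe sets of a gene. Signals of a gene with several probe sets are geometric means. A fold with 1 array at the floor is a bound. The threshold was 2-fold with 1 sign. The 24 poly-A control probe sets were all lower in Slc39a13-KO, with a median log2 ratio of -1.02. With 1 array per genotype no test was run, and the number of arrays limits the precision.

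Named genes were all called Zfp genes, those with the strongest signals, the lowest ratios or probe sets farthest apart, and those of the role lists. These genes and lists were chosen with earlier results of these data known. Alternatives were other floors, scalings, probe set rules and filters; keeping only probe sets that passed the floor in each array was added after seeing the data. The step from signals to called genes was tested on simulated data, and the later steps were not. Python 3.11.15, pandas 2.3.3, numpy 2.4.6, scipy 1.17.1, statsmodels 0.14.6 and matplotlib 3.10.9 were used. Protein sequences were not analysed here.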

Additional observations from a re-analysis of the deposited data

How the results depend on the processing

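Without replicates, every count of Zfp genes past 2-fold rests on the floor and the scaling. Genes at least 2-fold higher, 11 as reported, numbered 2 with a floor at the 70th percentile, 17 with no floor, 6 with median scaling, 7 with quantile scaling, 6 with loess and 72 with poly-A control scaling. Genes at least 2-fold lower, 0 as reported, numbered 1 (Zfp52) with a floor at the 30th or 70th percentile, with median, quantile or loess scaling, with the brightest probe set, with a filter on mean signal and with probe sets that passed the floor in each array, and 2 (Zfp52 and Zfp169) with no floor. The median log2 ratio, 0.36, came to 0.21 at the 70th percentile floor, 0.14, 0.22 and 0.22 with median, quantile and loess scaling and 1.22 with poly-A scaling, where the medians of all genes were 0.05, -0.11, 0, -0.01 and 0.94. The SD of the ratios was 0.76 with no floor. The share called came to 4.92% at the 70th percentile floor (7.61% of other genes of like signal) and 67.9% with poly-A scaling (52.8% of the others). Of the 11 called genes, the call was kept by 2 at the 70th percentile floor and by 6, 7 and 6 with median, quantile and loess scaling. Zfp383 kept it in all 11 alternatives, and Zfp36 and Zfp60 in the 10 in which they were measured. The other 8 lost it in at least 1 and 0 reversed: Zfp93 lost it in 7, Zfp386 in 5, Zfp41 and Zfp185 in 4, Zfp58 in 3, Zfp24 in 2, and Zfp395 and Zfp12 in 1. The Zfp median lay above that of genes of like signal by 0.12 to 0.23 in the alternatives, and 68.4% to 76.5% of Zfp genes lay above the median of all genes. The cause of these changes was not tested. No paired analysis was possible because each genotype has 1 array. Signals near the floor bound what the ratios of dim genes can show.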
